A study of Mus musculus with 8 samples.

Results

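The cholesterol synthesis and SREBP genes described here are Hmgcs1, Idi1, Fdft1, Sqle, Lss, Cyp51, Srebf2 and Insig1. They were the rows of the expression table that carried these gene names, which gave 8 of 19688 genes, and all 8 passed the filter on low values. Expression was measured by RNA sequencing of mouse blastocysts, in FPKM, a count of fragments scaled by transcript length and library size, so levels can be compared between genes. The 8 libraries formed 3 groups. The control group was 2 libraries of blastocysts that were never vitrified, titled IVF in the labels. The vitrified group was 3 libraries of blastocysts that had been cooled to a glass in cryoprotectant. The melatonin group was 3 libraries of vitrified blastocysts for which 1e-10 M melatonin had been put into the media of both vitrification and thawing. Strain, age, hours in culture and embryos per library are stated neither in the labels nor in the series text. The labels do not say whether replicates were separate litters, pools or cultures, so each p-value measures the spread between these samples, which may be technical.

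Cholesterol is built from acetyl-CoA through the mevalonate pathway, isoprenoid diphosphates, squalene and a chain of sterol intermediates. The transcription factor SREBP2, encoded by Srebf2, is held in the endoplasmic reticulum as a precursor when sterols are plentiful, by the escort protein SCAP and the INSIG proteins. When sterols are scarce it is carried to the Golgi, cleaved, and enters the nucleus, where it activates genes of nearly every step of the pathway, its own gene and Insig1, together with the factors NF-Y and Sp1. Blastocysts need sterols for the membranes of dividing cells and of the trophectoderm epithelium.

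The trophectoderm markers summed to between 6992 and 12168 FPKM and the epiblast markers to between 244 and 405 FPKM in the 8 libraries, so some markers of the labelled stage were present. The epiblast sums of the fresh libraries were mainly Zfp42 (216 and 245 FPKM), and not every listed marker was seen in each library. Esrrb was at 0 in fresh replicate 1. Of 8 cumulus and granulosa cell markers only Has2 was analysed here, and it was at 0 in 7 libraries and at 0.344 FPKM in vitrified replicate 2. Of 6 fibroblast markers 3 were analysed here, with sums of 0 to 0.336 FPKM. The estimated depth was lowest in fresh replicate 2, with 5815000 fragments, and highest in fresh replicate 1, with 9996000. Mitochondrial transcripts made up 11.3% of the FPKM in fresh replicate 1, 6.56% in fresh replicate 2 and 4.24% to 5.89% in the other libraries. Vitrified replicates 2 and 3 had no Y-linked transcripts, whereas the other 6 libraries did. The libraries are bulk samples, in which fewer cells of a type and less RNA per cell cannot be told apart.

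The RefSeq promoter table (GRCm38.p6) held windows for 6 of the 8 genes, and 4 are shown. They hold letters that SREBP2 or its partner factors are known to bind, at different places. Of the motifs marked, the windows of Lss and Srebf2 hold only the CCAAT and GC boxes. Each window shown is the stretch upstream of the RefSeq start site that lies outside the GENCODE gene. The windows are chr13:119690101-119690350 for Hmgcs1, chr5:28071162-28071362 for Insig1, chr10:76531355-76531587 for Lss and chr15:82147019-82147180 for Srebf2, all on the plus strand. Capitals mark 4 motifs, searched on both strands with overlaps allowed, so that CCAAT on the other strand reads as ATTGG: the CCAAT box (CCAAT), the GC box (GGGCGG), the letters of a sterol regulatory element (TCACNCCAC) and an E-box (CACGTG).
Hmgcs1: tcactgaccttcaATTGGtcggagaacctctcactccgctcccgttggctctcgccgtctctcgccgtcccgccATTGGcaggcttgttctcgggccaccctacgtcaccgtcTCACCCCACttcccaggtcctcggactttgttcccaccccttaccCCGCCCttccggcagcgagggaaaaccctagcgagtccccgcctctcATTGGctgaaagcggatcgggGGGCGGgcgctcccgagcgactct
Insig1: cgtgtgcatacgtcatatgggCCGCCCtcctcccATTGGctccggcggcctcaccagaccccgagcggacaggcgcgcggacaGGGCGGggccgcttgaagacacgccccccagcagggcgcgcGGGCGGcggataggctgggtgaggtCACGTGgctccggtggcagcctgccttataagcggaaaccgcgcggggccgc
Lss: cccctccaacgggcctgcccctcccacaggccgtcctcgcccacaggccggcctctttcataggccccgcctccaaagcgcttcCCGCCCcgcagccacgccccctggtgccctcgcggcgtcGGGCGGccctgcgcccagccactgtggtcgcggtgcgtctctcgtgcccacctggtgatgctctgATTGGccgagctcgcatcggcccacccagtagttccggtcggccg
Srebf2: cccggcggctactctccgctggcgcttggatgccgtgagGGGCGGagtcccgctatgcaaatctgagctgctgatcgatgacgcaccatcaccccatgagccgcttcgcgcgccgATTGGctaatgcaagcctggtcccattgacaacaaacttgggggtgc

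In the 250 bases upstream of the first start site listed for each gene, CCAAT stood in 6 of 6 genes, against 37.86% of 7630 tested genes with such a window. GGGCGG also stood in 6 of 6 genes, against 59.91%. The sterol element letters were found in Hmgcs1 alone, starting 137 bases upstream of the start site, and in 1.02% of tested genes. The E-box letters were found in Insig1 alone, 101 bases upstream, and in 8.9% of tested genes. Among 12 other enzymes of the pathway with a window, CCAAT stood in 10, GGGCGG in 11, the sterol element letters in 0 and the E-box letters in 2. Over all start sites of these 12 enzymes the counts were 11, 11, 0 and 3. These are exact matches of letters in a window, so near matches were not counted. They say nothing of binding in these embryos.

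None of the 8 genes passed the test for a difference between groups in any comparison. With limma on log2(FPKM + 1) and a Benjamini-Hochberg adjusted p below 0.05, 0 of 8 genes passed in vitrified against fresh blastocysts, where 0.865% of 10755 tested genes did. The count was 0 of 8 in melatonin against vitrified blastocysts, where 0.139% of tested genes passed, and 0 of 8 in melatonin against fresh blastocysts, where 0% did. At an unadjusted p below 0.05, 0 of 8 genes passed in each comparison, against 20.2%, 14.8% and 18.5% of tested genes. The libraries of the groups compared did not overlap for 1, 0 and 0 of the 8 genes, against 37%, 24.7% and 34.3% of tested genes. Libraries of the same group, in contrast, differed from each other across most of these genes, as described after the single genes.

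Hmgcs1 (ENSMUSG00000093930, mm10 chr13:119690379-119708260) encodes the cytosolic HMG-CoA synthase, an early enzyme of the mevalonate pathway. Its level was 48.8 and 24.3 FPKM in the fresh libraries, 42.2, 56.0 and 34.1 FPKM in the vitrified libraries, and 51.6, 52.4 and 34.3 FPKM in the melatonin libraries, in replicate order. Fresh replicate 2 was the lowest library and vitrified replicate 2 the highest, and the groups overlapped. The difference between vitrified and fresh blastocysts was 0.32 ± 0.32 (SE) on the log2 scale, with a 95% interval of -0.40 to 1.03 and a limma adjusted p of 0.612.

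Idi1 (ENSMUSG00000058258, mm10 chr13:8885501-8892451) encodes isopentenyl diphosphate isomerase, which interconverts the building blocks of all isoprenoids. It was at 51.0 and 19.2 FPKM in the fresh libraries, 27.4, 34.5 and 21.7 FPKM in the vitrified libraries, and 28.4, 40.3 and 25.3 FPKM in the melatonin libraries. Both extremes were fresh libraries, so the other groups lay inside their range. Vitrified against fresh blastocysts gave -0.19 ± 0.37 on the log2 scale (95% interval -1.03 to 0.64, limma adjusted p = 0.812).

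Fdft1 (ENSMUSG00000021273, mm10 chr14:63145150-63179578) encodes squalene synthase, the first step committed to sterols, and had the highest level of the 8 genes in every library. It was at 111 and 34.9 FPKM in the fresh libraries, 81.6, 90.2 and 58.0 FPKM in the vitrified libraries, and 68.9, 81.9 and 53.0 FPKM in the melatonin libraries. Again both extremes were fresh libraries. The difference between vitrified and fresh blastocysts was 0.27 ± 0.41 on the log2 scale (95% interval -0.66 to 1.19, limma adjusted p = 0.760).

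Sqle (ENSMUSG00000022351, mm10 chr15:59315077-59331192) encodes squalene epoxidase, a rate-limiting step of the pathway. It was at 14.4 and 11.9 FPKM in the fresh libraries, 19.0, 11.0 and 13.5 FPKM in the vitrified libraries, and 24.2, 18.0 and 8.99 FPKM in the melatonin libraries. The melatonin group held both the highest and the lowest library. Melatonin against vitrified blastocysts gave 0.15 ± 0.32 on the log2 scale (95% interval -0.58 to 0.88, limma adjusted p = 0.862).

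Lss (ENSMUSG00000033105, mm10 chr10:76531588-76557138) encodes lanosterol synthase, which closes the sterol rings, and had the lowest level of the 8 genes. It was at 2.25 and 1.25 FPKM in the fresh libraries, 1.91, 2.08 and 1.54 FPKM in the vitrified libraries, and 2.74, 2.01 and 1.48 FPKM in the melatonin libraries. At the summed exon length of the gene these correspond to about 78 to 242 fragments per library, so counting error limits Lss more than the other genes. The groups overlapped in all 3 comparisons, whose limma adjusted p-values were 0.908, 0.873 and 0.772.

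Cyp51 (ENSMUSG00000001467, mm10 chr5:4081145-4104746) encodes lanosterol 14-alpha demethylase, a cytochrome P450 that trims lanosterol. It was at 21.1 and 15.2 FPKM in the fresh libraries, 12.5, 14.5 and 10.9 FPKM in the vitrified libraries, and 21.2, 15.8 and 10.3 FPKM in the melatonin libraries. All 3 vitrified libraries lay below both fresh libraries, which held for 1 of the 8 genes in this direction and for 10.6% of tested genes. The difference was -0.48 ± 0.28 on the log2 scale (95% interval -1.11 to 0.15, limma adjusted p = 0.369). In the melatonin group the level spanned the whole range, and the difference from vitrified blastocysts was 0.25 ± 0.25 (95% interval -0.32 to 0.82, limma adjusted p = 0.671).

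Srebf2 (ENSMUSG00000022463, mm10 chr15:82147181-82205379) encodes the transcription factor itself. Its level was 6.32 and 7.76 FPKM in the fresh libraries, 10.4, 6.11 and 7.99 FPKM in the vitrified libraries, and 10.4, 10.8 and 5.39 FPKM in the melatonin libraries. The fresh libraries lay inside the range of both other groups. It was the only one of the 8 genes that was lower in fresh replicate 1 than in fresh replicate 2. Vitrified against fresh blastocysts gave 0.17 ± 0.31 on the log2 scale (95% interval -0.52 to 0.85, limma adjusted p = 0.799).

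Insig1 (ENSMUSG00000045294, mm10 chr5:28071363-28078662) encodes a protein that retains SREBP2 in the endoplasmic reticulum when sterols are plentiful. It was at 36.5 and 10.8 FPKM in the fresh libraries, 27.8, 23.1 and 18.0 FPKM in the vitrified libraries, and 21.8, 18.0 and 18.3 FPKM in the melatonin libraries. The 6 vitrified and melatonin libraries lay between the 2 fresh ones. Melatonin against vitrified blastocysts gave -0.22 ± 0.36 on the log2 scale (95% interval -1.03 to 0.59, limma adjusted p = 0.812).

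**Figure D1:**
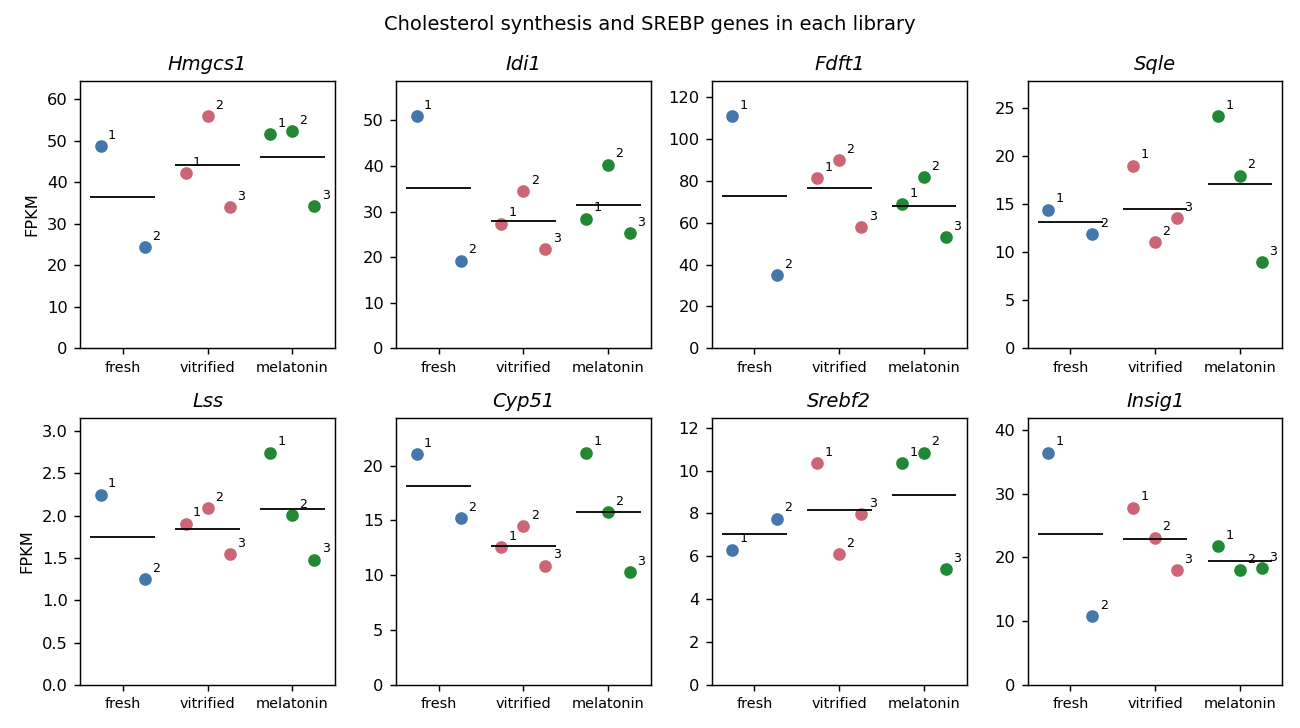
Level of each of the 8 genes in FPKM (linear axis from 0) in the fresh, vitrified and melatonin libraries; points are libraries with their replicate number and bars are group means. The fresh libraries lie far apart for Fdft1 (111 and 34.9 FPKM) and Insig1 (36.5 and 10.8 FPKM), with the other libraries between them.

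By mean FPKM over the 8 libraries the genes ranked Fdft1 (72.5), Hmgcs1 (43.0), Idi1 (31.0), Insig1 (21.8), Cyp51 (15.2), Sqle (15.1), Srebf2 (8.14) and Lss (1.91). Fdft1 lay above Hmgcs1, Sqle above Srebf2, and Srebf2 above Lss in 8 of 8 libraries. Hmgcs1 lay above Idi1, Idi1 above Insig1, and Insig1 above Cyp51 in 7 of 8. Cyp51 and Sqle could not be ordered, since each was the higher one in 4 libraries.

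As a set, the 8 genes had median differences near 0 in every comparison. In vitrified against fresh blastocysts their median log2 difference was 0.14, and the median of all tested genes was 0.14. The other medians were 0.09 against -0.05 for melatonin against vitrified blastocysts and 0.13 against 0.09 for melatonin against fresh blastocysts. Positive differences were found for 6 of 8 genes in vitrified against fresh blastocysts, where 63.5% of tested genes were positive, and for 6 and 5 of 8 in the other comparisons in the same order, against 43.8% and 59.2%. With the libraries rescaled by median ratios, which moved the median of all genes from 0.14 to -0.02, 2 of 8 were positive (Hmgcs1 and Fdft1). The median of the 8 genes rested on the fresh libraries: it was -0.38 without fresh replicate 2 and 0.41 without fresh replicate 1. The 95% intervals of single genes reached from -1.11 to 1.19 over the 8 genes in this comparison, so a 2-fold difference lay inside the interval for some of them.

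**Figure D2:**
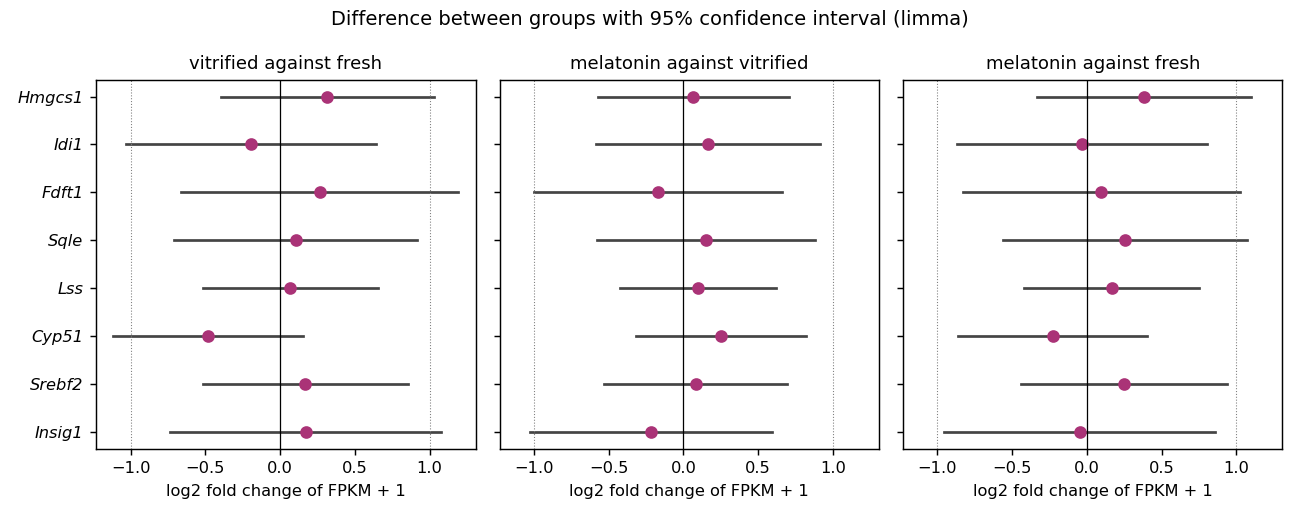
Log2 fold change of FPKM + 1 for each of the 8 genes in the 3 comparisons (points) with its 95% confidence interval from limma (lines). Every interval crosses 0, and the interval of Cyp51 in vitrified against fresh blastocysts runs from -1.11 to 0.15.

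Within each group the levels of most of these genes varied together. Fresh replicate 1 had more of 7 of the 8 genes than fresh replicate 2, while 39.4% of tested genes were higher in replicate 1. The ratio was 3.39 for Insig1, 3.18 for Fdft1, 2.66 for Idi1, 2.01 for Hmgcs1, 1.80 for Lss, 1.39 for Cyp51, 1.21 for Sqle and 0.814 for Srebf2. More than 2-fold higher were 4 of 8 genes and 6.69% of tested genes. With median ratio scaling the ratios of Insig1 and Fdft1 were 3.98 and 3.74. These are single libraries, so the ratios have no replicate check, and they were picked out after the values were seen. Fresh replicate 1 also had the deeper library and the larger mitochondrial share given above, and it had less of 7 of 8 epiblast markers, with a median log2 difference of -1.13 and sums of 244 against 319 FPKM. Tdgf1, for example, was at 3.47 and 24.9 FPKM. The primitive endoderm markers had a median log2 difference of -0.62 and sums of 96.4 against 135 FPKM. The part of these in the difference was not tested.

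In the vitrified group replicate 3 was the lowest library for 6 of the 8 genes, against 27.7% of tested genes. In the melatonin group replicate 3 was the lowest for 7 of the 8 genes, against 33.7% of tested genes. Median ratio scaling gave the same counts of 6 and 7. Melatonin replicate 1 was more than 2-fold above replicate 3 for 2 genes, Sqle (24.2 and 8.99 FPKM) and Cyp51 (21.2 and 10.3 FPKM), and 6.71% of tested genes were. Melatonin replicate 2 was so above replicate 3 for Srebf2 alone (10.8 and 5.39 FPKM), against 6.15% of tested genes, and replicate 1 above replicate 2 for none, against 7.54%. Replicate 1 over 3, 2 over 3 and 1 over 2 of the vitrified group exceeded 2-fold for 0 of the 8 genes, against 3.38%, 4.56% and 4.23% of tested genes. Summed over the 8 genes, the libraries held 291.5 and 125 FPKM (fresh), 223, 237 and 166 FPKM (vitrified), and 229, 239 and 157 FPKM (melatonin).

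**Figure D3:**
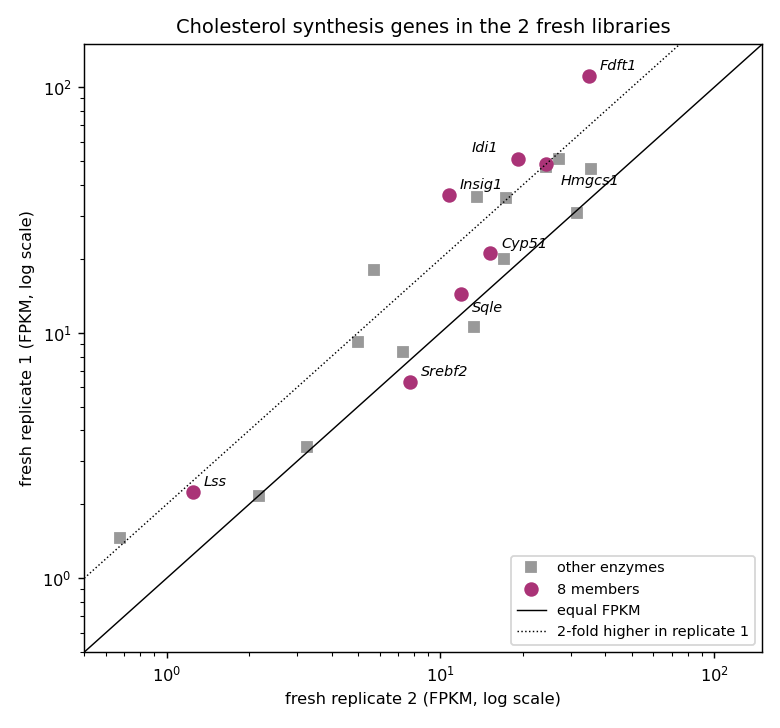
Level in fresh replicate 1 against fresh replicate 2 (FPKM, both axes on a log scale) for the 8 genes (circles) and other enzymes of cholesterol synthesis (squares); the solid line is equality and the dotted line a 2-fold higher level in replicate 1. Fdft1, Insig1, Idi1 and Hmgcs1 lie on or above the dotted line, and Srebf2 lies below equality.

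Across the 8 libraries the 28 pairs among these genes had a median Pearson r of 0.57 on the log2 scale, from -0.07 to 0.91, and 26 were above 0. Over the 6 vitrified and melatonin libraries alone the median r was 0.51 and 28 of 28 pairs were above 0. Fdft1 and Insig1 were the most alike pair over all libraries (r = 0.91), but their r was 0.59 over those 6 libraries, where Lss and Cyp51 were the most alike (r = 0.98). Sqle and Srebf2 had an r of 0.88 over all libraries and 0.94 over the 6, and both were highest in vitrified replicate 1 within their group. Srebf2 and Insig1 had the lowest r, at -0.07. The points are the same few libraries for each pair and share their depth and scaling, so these values are a description.

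Of the other 15 enzymes of the pathway, limma called 0 in each of the 3 comparisons. Fresh replicate 1 was the higher fresh library for 11 of the 15. The ratio between the fresh libraries was 3.15 for Mvk (mevalonate kinase) and 2.61 for Msmo1 (methylsterol monooxygenase). It was 0.975 for Ebp and 0.999 for Dhcr7, which became 1.14 and 1.17 with median ratio scaling. With that scaling fresh replicate 1 was the higher one for 14 of the 15, against 54.2% of tested genes (40.2% as deposited). Summed over 21 enzymes (6 of the 8 genes and these 15), the pathway made up 574 and 316 FPKM in the fresh libraries. It made up 467, 497 and 378 FPKM in the vitrified libraries and 470, 518 and 371 FPKM in the melatonin libraries. The group means were 445 ± 182 (SD, n = 2), 447 ± 61.9 (SD, n = 3) and 453 ± 74.9 FPKM (SD, n = 3), which differed by less than the spread within any group.

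**Figure D4:**
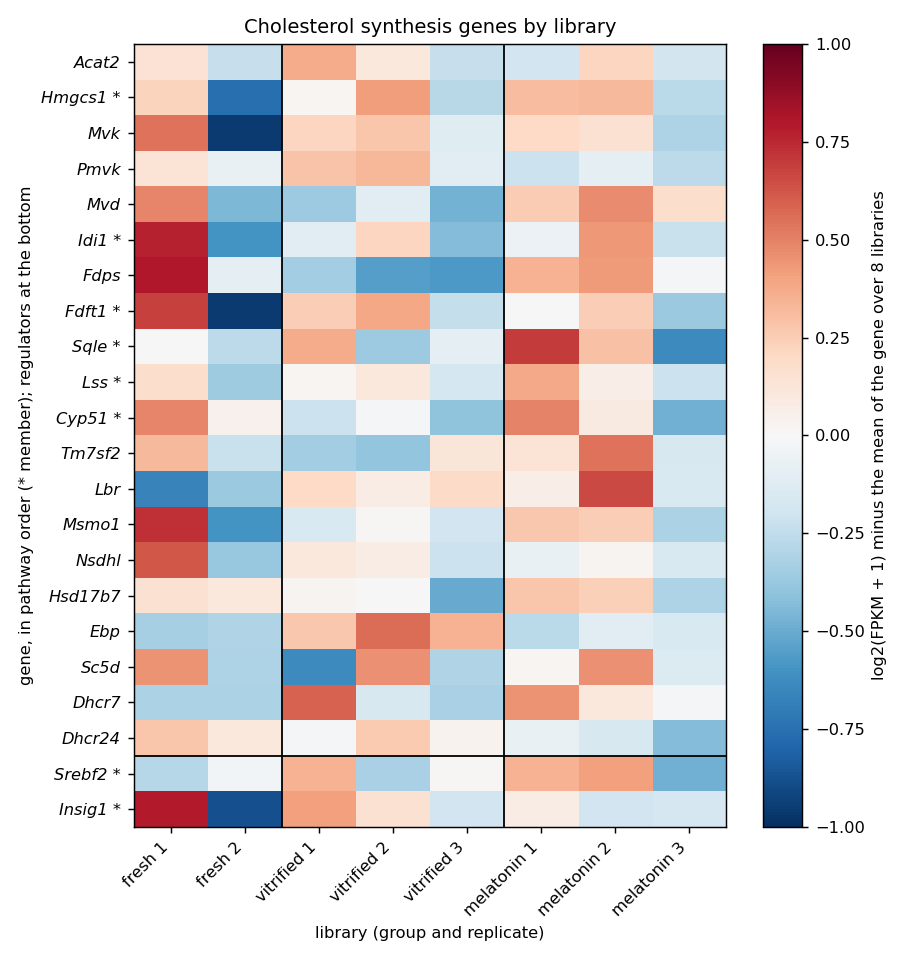
Log2(FPKM + 1) of enzymes in pathway order and of Srebf2 and Insig1, minus the mean of each gene over the 8 libraries (colour), by library; stars mark the 8 genes. Most rows are high in fresh replicate 1 and low in fresh replicate 2, vitrified replicate 3 and melatonin replicate 3, whereas Lbr and Ebp are low in both fresh libraries.

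In vitrified against fresh blastocysts 3 of these 15 enzymes were higher and 2 lower without overlap of the libraries. Over all tested genes 37% did not overlap in either direction, so this count does not set the enzymes apart. Ebp, the sterol isomerase that acts late in the pathway, was at 30.8 and 31.6 FPKM in the fresh libraries, 47.3, 58.2 and 50.0 FPKM in the vitrified libraries, and 32.2, 36.0 and 35.0 FPKM in the melatonin libraries. Each vitrified library lay above all others. The difference from fresh blastocysts was 0.71 ± 0.15 on the log2 scale (limma adjusted p = 0.0578), and that of melatonin from vitrified blastocysts was -0.57 ± 0.14 (limma adjusted p = 0.148). Neither passed.

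Fdps, the farnesyl diphosphate synthase that feeds Fdft1, ran the other way. It was at 51.1 and 27.1 FPKM in the fresh libraries, 22.5, 19.4 and 19.1 FPKM in the vitrified libraries, and 37.1, 39.2 and 28.8 FPKM in the melatonin libraries. Each vitrified library lay below all others. The difference of vitrified from fresh blastocysts was -0.85 ± 0.26 on the log2 scale (limma adjusted p = 0.115), and it rested on the fresh libraries: it was -1.29 without fresh replicate 2 (adjusted p = 0.0229) and -0.40 without fresh replicate 1 (adjusted p = 0.415). Over 17 alternative settings the adjusted p ranged from 0.0229 to 0.436. Melatonin against vitrified blastocysts gave 0.75 ± 0.23 (limma adjusted p = 0.213).

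Some epiblast and trophectoderm markers also differed between fresh and vitrified blastocysts. Of 8 epiblast markers tested, 5 were higher and 1 lower in vitrified than in fresh libraries without overlap, against 37% of tested genes in either direction. Limma called 1 of the 8, against 0.865% of tested genes. It was Nanog, at 3.49 and 9.80 FPKM in the fresh and 28.3 to 33.3 FPKM in the vitrified libraries (limma adjusted p = 0.0394). Zfp42, the most abundant epiblast marker, was at 216 and 245 FPKM in the fresh and 175 to 197 FPKM in the vitrified libraries. The sums over the list, of which Zfp42 was the largest part, overlapped (244 and 319 against 318 to 355 FPKM). In melatonin against vitrified blastocysts 4 of the 8 had positive log2 differences (median -0.0076) and limma called 0. Nanog was at 37.0 to 54.6 FPKM in the melatonin libraries. Of 10 trophectoderm markers, 1 was higher and 3 lower in vitrified than in fresh libraries without overlap. Limma called 1 of them, Cldn4, at 979 and 876 FPKM in the fresh and 353 to 494 FPKM in the vitrified libraries (limma adjusted p = 0.0394). In melatonin against vitrified blastocysts 9 of the 10 trophectoderm markers had positive log2 differences and limma called 0. The part of cell composition in the differences of Ebp and Fdps was not tested. Ebp lies on the X chromosome, and vitrified replicates 2 and 3 had no Y-linked transcripts. With a covariate for Y-linked transcripts, vitrified against fresh blastocysts gave 0.59 for Ebp and -0.70 for Fdps on the log2 scale. Melatonin against vitrified blastocysts then gave -0.45 and 0.60. All fresh and melatonin libraries had Y-linked transcripts, and of the vitrified libraries only replicate 1 did. The fits with the covariate therefore rest on vitrified replicate 1 alone for its group, which was at 47.3 FPKM for Ebp. They cannot tell embryo sex and vitrification apart, and the part of embryo sex was not tested.

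Of the genes of SREBP processing and linked protein turnover, 0 of 10 tested were called by limma in any comparison. Scap, the escort protein, was at 1.74 to 2.40 FPKM in all 8 libraries. Vcp, an ATPase that extracts proteins from the endoplasmic reticulum membrane, had the smallest p of the list in vitrified against fresh blastocysts (0.74 ± 0.21 on the log2 scale, limma adjusted p = 0.0928). Of genes for uptake and sterol transport within the cell, 0 of 8 were called in any comparison. Of 8 tested genes of fatty acid synthesis and 8 of the isoprenoid branches, 0 were called in any comparison.

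The only call among these pathway genes was Apoe, 1 of 2 tested genes of efflux and its nuclear receptors. Apoe encodes apolipoprotein E, a protein of lipoprotein particles. The level of Apoe was 15.0 and 12.2 FPKM in the fresh libraries, 29.8, 49.1 and 51.8 FPKM in the vitrified libraries, and 21.5, 14.7 and 16.2 FPKM in the melatonin libraries. The vitrified libraries lay above all others. Apoe rose by 1.58 ± 0.26 on the log2 scale in vitrified against fresh blastocysts (limma adjusted p = 0.0394). It passed in 4 of 17 alternative settings and in 1 of the 8 fits that left out a library, with adjusted p-values from 0.0355 to 0.195. The passing fit with a library left out was the one without vitrified replicate 1 (limma adjusted p = 0.0376). With a covariate for Y-linked transcripts, vitrified against fresh gave 1.08. That value rests on vitrified replicate 1 alone, the only vitrified library with such transcripts. The vitrified libraries without Y-linked transcripts, replicates 2 and 3, were highest. The difference of melatonin from vitrified blastocysts was -1.25 ± 0.23 (limma adjusted p = 0.0967). Without vitrified replicate 1 it was -1.50 with an adjusted p of 0.0374, in a range of 0.0374 to 0.83. Without that replicate the vitrified libraries all lacked Y-linked transcripts and all others had them. Embryo sex and vitrification cannot be told apart there. Of 6 blood cell markers 2 were analysed here. Hba-a1 was at 0 in vitrified replicate 1 and in all melatonin libraries and at most at 1.34 FPKM elsewhere. Only the other, Cd68, a macrophage marker, was tested. It also rose in vitrified blastocysts (1.23 on the log2 scale, limma adjusted p = 0.0446). Cd68 was at 1.45 to 1.91 FPKM in fresh, 4.66 to 5.78 FPKM in vitrified and 2.57 to 3.90 FPKM in melatonin libraries. The summed blood cell markers, mostly Cd68, were 1.45 to 2.35, 4.96 to 7.13 and 2.57 to 3.90 FPKM in the same order. Their part in the level of Apoe was not tested. Of 7 primitive endoderm markers, 5 had positive log2 differences in vitrified against fresh blastocysts (median 0.43) and 0 in melatonin against vitrified blastocysts (median -0.43), with 0 called in either. Gata6, 1 of them, had means of 16.4 ± 9.14 (SD, n = 2), 33.9 ± 0.901 (SD, n = 3) and 20.8 ± 4.65 FPKM (SD, n = 3) in the fresh, vitrified and melatonin groups. Their part was not tested either.

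The genes outside the set whose pattern over the 8 libraries was most like the mean standardized level of the 8 genes were Gm10311 and Pus7 (both r = 0.96), Stk16 (r = 0.93), Mlxip (r = 0.92) and Dapk2 (r = 0.91). Pus7 encodes a pseudouridine synthase, Stk16 and Dapk2 encode protein kinases, and Mlxip encodes a glucose-responsive transcription factor. Gm10311 was at 7.75 and 3.11 FPKM in the fresh libraries and was lowest in melatonin replicate 3, at 2.20 FPKM. Over the 6 vitrified and melatonin libraries r was 0.99, 0.92, 0.96, 0.93 and 0.76 in the same order. Msmo1 and Mvk had an r of 0.89 each and ranked 7 and 9 among 10755 tested genes, which include the 8 genes themselves. These values describe the 8 libraries only.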

How the data were processed

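The authors deposited 1 table of FPKM per gene and library, computed by them on mm10, per the submitters' processing notes. Aligner, counter, annotation and filters were not given in the sources used here. Smart-seq2 is named in the series text, whereas the labels' protocols describe poly(A) selection and a stranded library. Groups and replicate numbers came from the sample descriptions. Fragments per library (5815000 to 9996000) were estimated from steps in the deposited FPKM, where 94.2% to 96.6% of low values were whole multiples within 0.1. Coordinates are from GENCODE M21 and promoter windows from RefSeq.

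Differences were tested with limma 3.58.1 (R 4.3.3), two-sided, with a variance trend. The model covered all 8 libraries on the log2(FPKM + 1) scale. Genes with at least 1 FPKM in at least 2 libraries were tested (10755) and p-values adjusted over all of them by Benjamini-Hochberg, at a threshold of 0.05. The fit was tested on simulated data. Fold changes on this scale understate those of low genes. FPKM are shares of a library, so a large mitochondrial share lowers all other genes. Descriptions were computed with Python 3.11.15, pandas 2.3.3 and numpy 2.4.6.

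The 8 genes and the gene lists were chosen with earlier results of these data known, so no p was computed over a list. Beside the 8 genes, those named were enzymes of cholesterol synthesis and genes of SREBP processing, and from other lists those that passed and the 2 with the smallest p in a comparison. Some genes of these lists are not reported here. The 5 genes most like the 8 were named by Pearson r. Markers and libraries are named where they bear on a result. Alternatives were no filter, a filter at a mean of 5 FPKM, a pseudocount of 0.1, median ratio scaling, no variance trend, only the groups compared, a replicate block, a covariate for Y-linked transcripts, and each library left out.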

Additional observations from a re-analysis of the deposited data

How the results depend on the processing

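None of the 8 genes passed in any of the 3 comparisons under any alternative, and the lowest adjusted p of any of them was 0.0763 (Insig1, melatonin against fresh, without fresh replicate 2). Of 405 log2 differences recomputed under alternatives, 231 took another value, and the rest came from settings that leave the fold as it is. Of the 231, 186 kept their sign and 45 changed it: 28 with 1 library left out, 10 with a replicate block (2 and 8 by the numbering used), 5 with median ratio scaling and 2 with the covariate for Y-linked transcripts. The cause was not tested. Groups of 2 and 3 libraries limit all comparisons. Under a mean of at least 5 FPKM no value was given for Lss. Correlations between members over 6 libraries and places within groups under median ratio scaling were added after the data were seen.

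The count of genes called in vitrified against fresh blastocysts, 93, was 1 without a filter, 7 with median ratio scaling, 11 with only the groups compared, 4 with the covariate for Y-linked transcripts, and 2 to 433 with 1 library left out (433 without fresh replicate 2). Median ratio scaling turned its split from 82 higher and 11 lower to 3 and 4. For melatonin against vitrified blastocysts the count of 15 was 6 with a pseudocount of 0.1, 68 with only the groups compared, 3 with the covariate, and 1 to 68 with 1 library left out. For melatonin against fresh blastocysts the count of 0 was 5 with a pseudocount of 0.1, 2 with only the groups compared, and 0 to 565 with 1 library left out (565 without fresh replicate 2).

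Deviations from the group mean of libraries with the same number had correlations of -0.11 to 0.12. The deviations of the 2 fresh libraries mirror each other, and pairs with unlike numbers were not computed for reference. These values therefore cannot settle whether the replicate numbers pair the libraries. With a replicate block by the number in the description the counts were 1, 1 and 0, and with a replicate block by the number in the title 39, 0 and 44, in the order of the comparisons above. By the description, melatonin against fresh blastocysts was 0.12 for Idi1 and 0.0496 for Insig1. By the title, vitrified against fresh blastocysts was -0.13 for Hmgcs1, -0.41 for Fdft1, -0.14 for Lss and -0.53 for Insig1. Melatonin against vitrified blastocysts was then -0.31 for Sqle and -0.22 for Srebf2, and melatonin against fresh blastocysts -0.47 for Fdft1 and -0.13 for Lss.

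With median ratio scaling, vitrified against fresh blastocysts was -0.081 for Sqle, -0.066 for Lss, -0.007 for Srebf2 and -0.0215 for Insig1, and melatonin against fresh blastocysts was -0.0276 for Fdft1. With the covariate, melatonin against vitrified blastocysts was -0.25 for Sqle and -0.26 for Srebf2. In all fits with the covariate vitrified replicate 1 alone stood for its group. With 1 library left out, the median over the 8 genes ranged from -0.38 to 0.41 for vitrified against fresh, from -0.05 to 0.28 for melatonin against vitrified, and from -0.28 to 0.54 for melatonin against fresh. Single genes in vitrified against fresh then ranged from -0.56 to 1.09 (Fdft1), -0.17 to 0.81 (Hmgcs1), -0.88 to 0.49 (Idi1), -0.67 to 1.01 (Insig1), -0.20 to 0.33 (Lss), -0.0948 to 0.27 (Sqle) and -0.0022 to 0.34 (Srebf2). In melatonin against vitrified the ranges were -0.10 to 0.26 (Hmgcs1), -0.0286 to 0.32 (Idi1), -0.0539 to 0.24 (Lss), -0.14 to 0.53 (Sqle) and -0.0879 to 0.37 (Srebf2). In melatonin against fresh they were -0.46 to 0.0287 (Cyp51), -0.72 to 0.92 (Fdft1), -0.11 to 0.87 (Hmgcs1), -0.71 to 0.65 (Idi1), -0.88 to 0.79 (Insig1), -0.10 to 0.43 (Lss) and -0.0362 to 0.63 (Sqle).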
